A study of Homo sapiens with 15 samples.

Results

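H1 human embryonic stem cells were compared at 2 points of a laminin-based cardiac differentiation, day 9, a cardiac progenitor stage, and day 20, when the culture holds cardiomyocytes. Every gene that passed a filter on low counts was a member of the comparison, 21207 of the 48777 genes listed. The 3 day 9 and 3 day 20 libraries are 6 of the 15 bulk libraries of the series, which also covers days 0, 4 and 11. H1 is an established human embryonic stem cell line, and all libraries come from this single line, so the data hold no second genetic background. Both groups had grown on laminin-521 with laminin-221, the latter an isoform of heart muscle. Both had been exposed to CHIR99021, an activator of Wnt signalling, and then to IWP2, which blocks the release of Wnt ligands, in RPMI medium with B27 lacking insulin. The growth protocol gives the CTS B-27 Supplement from day 11 on, so only the day 20 cells had been in it, and time and medium cannot be told apart. The libraries are called day 9 replicates 1 to 3 and day 20 replicates 1 to 3 here, numbers that name a library and pair none. The day 20 numbers are those of the deposited columns. The day 9 numbers are not, since day 9 replicates 1, 2 and 3 here are the deposited columns numbered 2, 3 and 1.

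Cardiomyocytes form from mesoderm. Cells that leave pluripotency pass through a primitive streak state, and the mesoderm that follows carries the receptors PDGFRA and KDR before regulators such as ISL1, NKX2-5 and TBX5 commit it to heart. Commitment is followed by the assembly of sarcomeres, the repeating units of myosin and actin filaments, by the build-up of the sarcoplasmic reticulum that releases and takes up calcium at each beat, and by the channels that set the action potential. Heart muscle made from stem cells resembles fetal heart, with fetal isoforms such as TNNI1 and MYL7 beside adult ones such as TNNI3 and MYL2.

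Between the 2 days 1425 genes were higher and 702 were lower on day 20 at an adjusted p under 0.05 (edgeR quasi-likelihood test, two-sided, Benjamini-Hochberg over all 21207 genes), which is 6.72% and 3.31% of the genes tested. As measured, the gains were the larger changes. Of the higher genes 410 had risen by 16-fold or more against 35 of the lower ones that had fallen by as much. The median log2 fold change was 2.89 among the higher and -1.59 among the lower, beside 0.10 over all genes tested. Background reads in day 20 replicate 2, described below, limit the size of a fall that can be measured. Leaving that library out took the median of the pluripotency genes from -2.60 to -3.67 and that of the sarcomere genes from 4.23 to 4.10. Most calls were protein-coding genes, 1249 higher and 619 lower of 15454 tested, and 124 lncRNAs were higher and 35 lower of 3385. For 1423 of the higher genes and all 702 lower ones the 3 libraries of a day did not overlap those of the other day, a separation that 17.9% of all genes showed upwards and 17.2% downwards.

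The day 20 libraries differed more among themselves than the day 9 libraries did. The median SD of log2 CPM (counts scaled to a common library size) over genes was 0.21 on day 9 and 0.519 on day 20, and Pearson's r between pairs of libraries, across genes that are not independent replicates, ran from 0.976 to 0.987 on day 9 and from 0.905 to 0.957 on day 20. Day 20 replicate 2 stands apart. It had an RNA integrity number of 6.1 against 8.8 to 10.0 in the other 5 libraries, it listed counts for 48230 genes against 34166 to 39551, and it held reads in all 174 long autosomal coding genes chosen for having next to no reads on days 0 to 11, at a median of 2.79 TPM (transcripts scaled for gene length and library size). That even cover, the form genomic DNA would take, was estimated at 9.05% of its counts, against 0.48% in day 20 replicate 3 and 0.0% in replicate 1, while the day 9 libraries took part in choosing those genes. A level of up to about 5.15 TPM in day 20 replicate 2, the 90th percentile over the silent genes, is therefore not read as expression. The tested genes together held 815875 TPM in that library, against 974401 to 980122 TPM in the other 5 libraries. Summed TPM of a list in day 20 replicate 2 is therefore on a lower scale than in the other libraries.

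The number of calls moved with the libraries entered. Without day 20 replicate 2, 2380 of 21673 genes were higher (11.0%) and 1694 were lower (7.82%), and these include 1381 of the 1425 and 666 of the 702. Without day 20 replicate 1 the lower calls were 467. Leaving out a day 9 library cost more. The calls were 146 higher and 58 lower without day 9 replicate 1, 403 and 215 without replicate 2, and 178 and 68 without replicate 3. Sequencing lanes 1, 2 and 5 each held 1 library of each day, which leaves single pairs within a lane, and a fit that blocked on lane called 868 higher and 371 lower. No called gene changed sign in any of these fits. Of the 243 genes that were called in a list below or lead by size of change, 48 stayed past the threshold in every fit run, among them MYH6, MYH7, MYBPC3, FBXO40, HSPB3, IRX4, CHRM2, CD36 and LAMA2 that rose and APLNR, LIN28A, DNMT3B, LGR5, VRTN, TUNAR, CBLN2 and PGA5 that fell. Of the 243, 231 kept their call without day 20 replicate 2, 177 with the lane block, and 48, 110 and 57 without day 9 replicates 1, 2 and 3.

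Genes were read in 35 lists of known function, described by how many of their tested members were called and by the median log2 fold change, beside 6.72% higher, 3.31% lower and 0.10 for all genes. Together the lists hold 835 tested genes, of which 156 were higher and 77 lower. Where a list is said below to have no member called in a direction, edgeR at an unadjusted p under 0.05 gave 11 members lower over 18 such lists and 4 higher over 9, and DESeq2 called 5 lower and 1 higher in them.

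**Figure D1:**
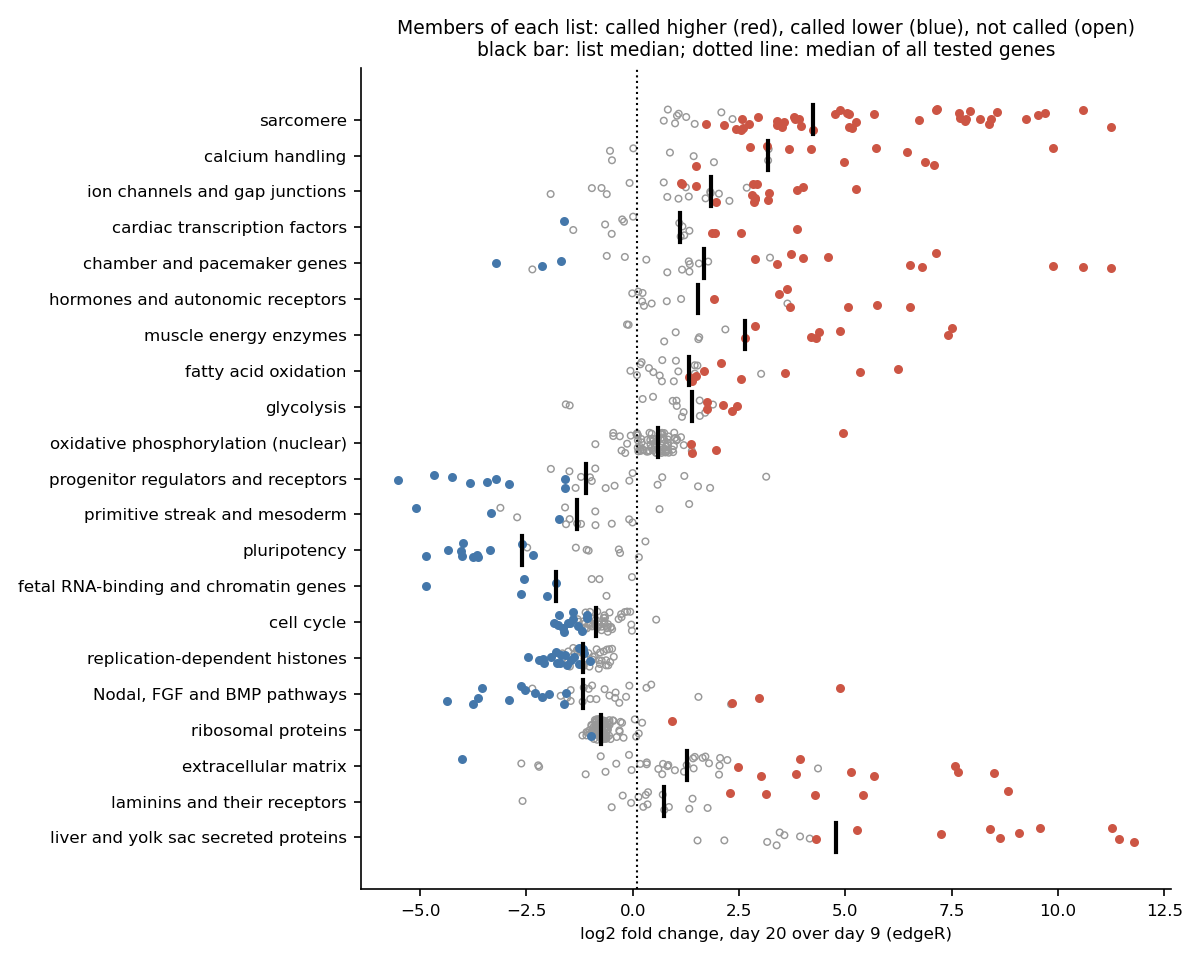
Log2 fold change of day 20 over day 9 for the tested members of 21 lists, one point a gene, with members called higher in red, called lower in blue and not called open. Black bars are list medians and the dotted line is the median of all tested genes at 0.10. The sarcomere list lies wholly to the right of 0 with a median of 4.23, and the pluripotency list has a median of -2.60.

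Most genes of the contractile apparatus rose. Of the 51 tested sarcomere genes 42 rose and none fell, with a median log2 fold change of 4.23, and all 51 fold changes were positive. The thick filament rose with all 8 of its genes, the thin filament with 9 of 12, titin and the proteins of the Z-disc and M-band with 15 of 19, and the factors of myofibril assembly and turnover with 10 of 12. The summed level of the list was between 1754 and 4288 TPM on day 9 and between 12268 and 48673 TPM on day 20. Calls numbered 41 without day 20 replicate 2, 36 with the lane block, and 17, 27 and 18 without day 9 replicates 1, 2 and 3.

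MYH6 encodes the alpha myosin heavy chain and lies head to tail with MYH7, the gene of the slower beta chain. MYH6 (GRCh38, chromosome 14, 23381982 to 23408273, minus strand, GENCODE 44) was at 17.0, 18.7 and 17.3 TPM in day 9 replicates 1 to 3 and at 10789.9, 7924 and 1877 TPM in the day 20 replicates, a log2 fold change of 8.41 ± 0.88 (SE, n = 3 and 3, edgeR adjusted p = 0.00406). MYH7 (chromosome 14, 23412740 to 23435660, minus strand) was at 0.333, 0.571 and 0.533 TPM and then at 1441, 683 and 336 TPM, a rise of 10.58 ± 0.84 (adjusted p = 0.00262). Both genes had wholly separate days, and in each day 20 replicate MYH6 was the higher of the pair per length. The paralogs share much of their sequence, and how the counting split reads that match both is not stated.

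The ventricular light chain MYL2 (chromosome 12, 110910819 to 110921443) had no read in any day 9 library and was at 63.8, 65.1 and 8.41 TPM on day 20, at least 103-fold higher when 3 counts per library are taken as the day 9 limit. MYL3, the ventricular essential light chain, rose from a mean of 12.5 ± 2.75 TPM (SD, n = 3) to 2276, 3028 and 869 TPM. The atrial and fetal light chain MYL7 was already expressed at 379.6, 1179 and 147 TPM on day 9 and rose by 3.39 ± 0.84 (adjusted p = 0.0454) to 7918, 10128 and 2267 TPM. Light chains therefore started from very different day 9 levels. MYBPC3, the myosin-binding protein of the thick filament, was near 1 TPM on day 9 (1.04, 0.898 and 0.601) and at 1074, 1077 and 271 TPM on day 20 (9.69 ± 0.74, adjusted p = 0.00215).

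The thin filament list holds fetal and adult isoforms. TNNT2, the tropomyosin-binding troponin of heart, rose from 15.4, 50.5 and 8.37 TPM to 838, 1745 and 353 TPM (5.08 ± 0.83, adjusted p = 0.0137). The fetal inhibitory troponin TNNI1 rose from 16.5, 54.6 and 18.9 to 744, 437 and 279 TPM (3.91 ± 0.63, adjusted p = 0.0125). The adult form TNNI3 was at 16.3, 14.5 and 14.9 TPM on day 9 and at 48.1, 46.5 and 11.4 TPM on day 20, where day 20 replicate 3 lay below every day 9 library, and it did not pass the test (1.00 ± 0.49, adjusted p = 0.24). Whether TNNI1 and TNNI3 differ in their change was not tested. The cardiac actin ACTC1 rose by 2.56 ± 0.63 (adjusted p = 0.0448) from 171, 303 and 86.4 to 1495, 1913 and 419 TPM, and its reads can be shared with other actin genes. TPM1, which encodes a tropomyosin, and ANKRD1, a stretch-responsive protein of the I-band, were already at means of 289 ± 186 and 470.5 ± 351 TPM (SD, n = 3) on day 9 and did not pass the test.

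TTN encodes titin, the spring of the sarcomere, and stood at 20.4, 25.1 and 19.1 TPM on day 9 and at 983, 861 and 157 TPM on day 20 (4.75 ± 0.80, adjusted p = 0.0146). Antisense genes overlap TTN, and with no strand setting given for the counting, their reads cannot be told apart from those of TTN. ACTN2, the Z-disc cross-linker, rose from 3.37, 11.3 and 2.72 to 1144, 680.4 and 174 TPM (6.72 ± 0.95, adjusted p = 0.00888), and the Z-disc gene MYOZ2 rose by 9.24 ± 0.76. SMYD1, a methyltransferase needed for myofibril assembly, rose from 20.2, 46.9 and 20.5 to 559, 671 and 159.7 TPM (3.79 ± 0.58, adjusted p = 0.0109). In each of these genes day 20 replicate 3 was the lowest of its day. The same library was the lowest day 20 library in 750 of the 1425 genes called higher, against 396 for replicate 2 and 279 for replicate 1. In bulk RNA, fewer muscle cells and less muscle RNA per cell cannot be told apart.

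**Figure D2:**
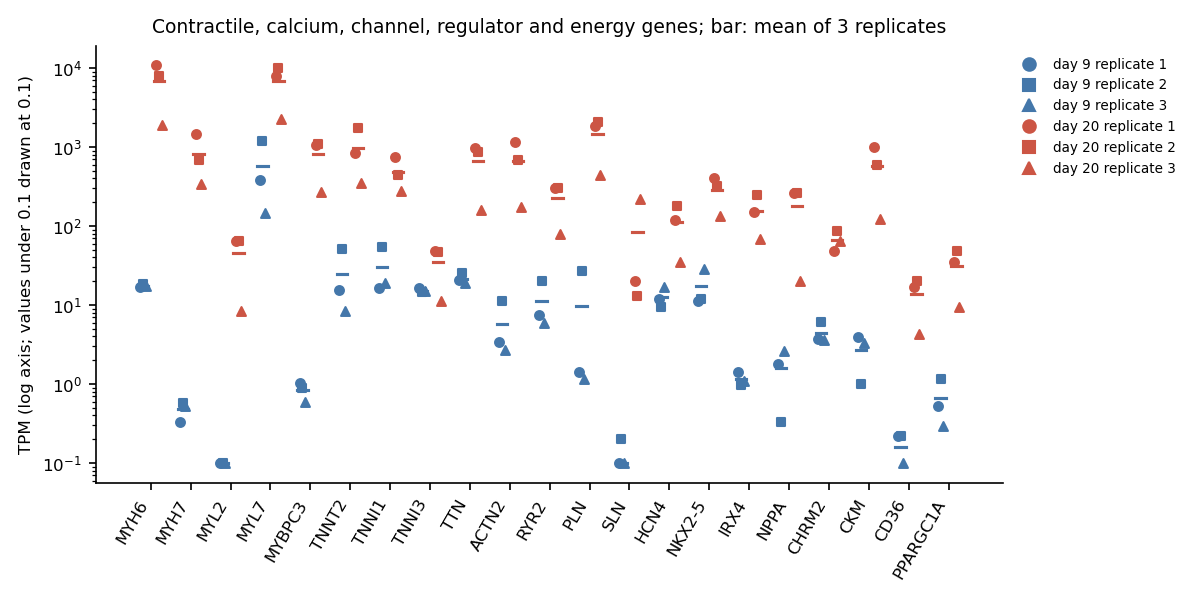
TPM on a log axis for 21 genes of contraction, calcium, excitation, regulation and energy, with day 9 libraries in blue and day 20 libraries in red, the symbol giving the replicate and the bar the mean of 3. All genes except TNNI3 have separate days, and day 20 replicate 3 (red triangle) is the lowest day 20 library for most of them but the highest for SLN, at 222 TPM.

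The promoters of genes that rose and fell together are shown for their sequence. RefSeq windows of 300 bases (GRCh38.p14, 250 bases before the start and 50 from it on) matched 29 of the 42 called sarcomere genes with 39 windows, and 11 of the 13 called cell cycle genes with 14 windows. The letters were searched on both strands. AGATAA, a form of the GATA site, lay in 20.5% of the sarcomere windows and in 10.3% of all 35116 windows of the table, the M-CAT letters CATTCC in 25.6% and 14.0%, the TATA box TATAAA in 20.5% and 11.5%, the MEF2 site in 20.5% and 2.99% and the CArG box in 17.9% and 1.29%. MEF2 and CArG sites are both rich in A and T, and a match to 1 can overlap the other. These are shares of letters found, not of bound sites, and the called genes were chosen by the readout. In the sequences below capitals mark TATAAA and the M-CAT letters in MYH6, the MEF2 site and AGATAA in MYBPC3, and the M-CAT letters and the CArG box in MYL7, the M-CAT letters as their reverse complement. All 3 genes are on the minus strand, printed 5′ to 3′ of the gene (chr14:23408224-23408523, chr11:47352653-47352952 and chr7:44141283-44141582).
MYH6: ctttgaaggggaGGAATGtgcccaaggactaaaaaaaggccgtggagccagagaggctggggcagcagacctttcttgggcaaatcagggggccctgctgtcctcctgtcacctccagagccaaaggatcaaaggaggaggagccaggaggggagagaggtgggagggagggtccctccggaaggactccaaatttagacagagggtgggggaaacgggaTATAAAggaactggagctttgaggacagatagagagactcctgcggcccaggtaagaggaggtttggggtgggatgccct
MYBPC3: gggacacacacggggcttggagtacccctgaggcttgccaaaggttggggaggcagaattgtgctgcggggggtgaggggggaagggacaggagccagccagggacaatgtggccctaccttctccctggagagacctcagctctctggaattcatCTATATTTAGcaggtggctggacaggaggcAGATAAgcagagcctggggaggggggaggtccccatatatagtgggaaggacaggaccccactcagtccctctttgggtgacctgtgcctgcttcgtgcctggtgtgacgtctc
MYL7: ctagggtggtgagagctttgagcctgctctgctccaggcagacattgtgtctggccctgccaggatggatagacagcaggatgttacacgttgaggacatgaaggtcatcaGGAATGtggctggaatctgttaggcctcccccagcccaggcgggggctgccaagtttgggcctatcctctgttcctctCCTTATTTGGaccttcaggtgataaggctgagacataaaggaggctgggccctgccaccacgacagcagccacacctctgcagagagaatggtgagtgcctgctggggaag
The TATA box of MYH6 began 30 bases before the start, the MEF2 site of MYBPC3 94 and its AGATAA 64 bases before, and the CArG box of MYL7 61 bases before. The 3 windows were chosen, after the motifs had been counted, as examples that hold them.

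Of 19 calcium handling genes tested, 11 rose and none fell, with a median of 3.18. The same number was called with the lane block and without day 20 replicate 2, and 2, 7 and 3 were called without day 9 replicates 1, 2 and 3. RYR2, the channel that releases calcium from the sarcoplasmic reticulum, was at 7.44, 20.0 and 5.96 TPM on day 9 and at 306, 299 and 78.3 TPM on day 20 (4.18 ± 0.68, adjusted p = 0.0134). PLN, the brake of the reticulum's calcium pump, rose from 1.42, 27.0 and 1.15 to 1871, 2063 and 447 TPM (7.08 ± 1.43, adjusted p = 0.0253), with day 9 replicate 2 far above the other day 9 libraries. The related atrial pump inhibitor SLN had no read in 2 day 9 libraries and 0.202 TPM in the other, and was at 20.1, 12.9 and 222 TPM on day 20 (9.89 ± 1.84, adjusted p = 0.02). SLN thus ran against PLN among the day 20 libraries, being highest where PLN was lowest. SLC8A1, the sodium-calcium exchanger, rose by 6.87 ± 0.70 and sarcalumenin (SRL) by 6.44 ± 0.66. CASQ2, the cardiac calcium store protein, was at 1.45, 10.7 and 0.811 TPM on day 20 and did not pass the test (adjusted p = 0.0941).

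Of 31 channel and gap junction genes 15 rose and none fell (median 1.83), with 7 called with the lane block and 0, 2 and 1 without day 9 replicates 1, 2 and 3. The pacemaker channel HCN4 rose from 11.8, 9.50 and 16.8 to 118, 182 and 35.5 TPM (2.86 ± 0.53, adjusted p = 0.0198), and the L-type calcium channel CACNA1C from 1.49, 3.45 and 1.44 to 27.2, 71.5 and 12.4 TPM (3.85 ± 0.60, adjusted p = 0.0119). KCNH2, the channel of the rapid repolarizing current, was at 30.1, 26.2 and 33.8 TPM on day 9 and changed least of these, to 89.2, 77.3 and 59.9 TPM (1.15 ± 0.27, adjusted p = 0.0412). The largest rise of the list was ABCC9, the regulatory subunit of the ATP-sensitive potassium channel (5.26 ± 0.87). The gap junction genes split. The atrial and conduction connexin GJA5 rose from 1.60, 0.501 and 3.78 to 30.0, 79.7 and 11.3 TPM (3.99 ± 0.86, adjusted p = 0.031), while GJA1, the main connexin of working heart muscle, went from 1506, 1529.8 and 2528 TPM to 276, 599.5 and 785 TPM, separate days that just missed the threshold (-1.93 ± 0.49, adjusted p = 0.0506). 

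Of the 16 cardiac transcription factors 4 rose and 1 fell, and with the lane block NKX2-5 and MEF2A were called higher and GATA6 lower. Without day 9 replicates 1, 2 and 3, 0, 0 and 1 were called higher and 0, 1 and 0 lower. NKX2-5 rose from 11.2, 11.9 and 28.9 to 411, 318 and 135 TPM (3.85 ± 0.58, adjusted p = 0.0106). MYOCD, a coactivator of muscle genes, rose from 21.2, 24.2 and 18.5 to 158, 245 and 39.9 TPM (2.53 ± 0.54, adjusted p = 0.0299), MEF2A by 1.94 ± 0.32 and MEF2C by 1.85 ± 0.45. GATA6 fell by 1.61 on the log2 scale (SE 0.28) from a mean of 166 ± 36.1 to 62.3 ± 3.98 TPM (SD, n = 3). TBX5 was at 31.7, 9.86 and 23.5 TPM and at 63.4, 103 and 32.7 TPM, separate days whose difference did not pass the test (1.33 ± 0.51, adjusted p = 0.145).

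Genes of the ventricle, the atrium and the pacemaker all had members that rose. Of 7 ventricular genes 5 rose, with a median of 6.79, of 11 atrial genes 4 rose and 1 fell, and of 8 pacemaker genes 2 rose and 2 fell. MYL2 and SLN, described above, are counted again here. Of all 26 genes 11 rose and 3 fell, against 9 and 2 with the lane block and 10 and 1 without day 20 replicate 2. The counts were 4 and 0, 5 and 1, and 4 and 0 without day 9 replicates 1, 2 and 3. IRX4, a ventricular regulator, was at 1.44, 0.976 and 1.11 TPM on day 9 and at 152, 248 and 68.7 TPM on day 20 (6.79 ± 0.50, adjusted p = 0.00215). FHL2 rose by 4.58 ± 0.92, with 425 TPM in day 20 replicate 1 against 83.6 and 45.7 TPM in the other two. The atrial hormone NPPA rose from 1.81, 0.327 and 2.66 to 262, 260.4 and 20.2 TPM (6.51 ± 1.11, adjusted p = 0.0154). HEY2, a repressor of the atrial programme, was at 37.6, 15.8 and 41.6 TPM and at 149.6, 188 and 51.9 TPM and did not pass the test (1.77 ± 0.53, adjusted p = 0.0773). Pacemaker regulators moved in both directions. TBX18 rose by 3.73 ± 0.36, whereas TBX3 fell by 1.68 on the log2 scale (SE 0.40, adjusted p = 0.041) from 78.6, 69.9 and 71.4 to 38.9, 20.8 and 16.2 TPM, and ISL1 fell as given below. BMP10, a growth factor of the embryonic heart, fell by 2.12 (SE 0.53) and was past the threshold in 9 of the 19 fits run.

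Of 16 hormone and autonomic receptor genes 7 rose and none fell, 5 did with the lane block and 2, 4 and 2 without day 9 replicates 1, 2 and 3. CHRM2, the muscarinic receptor through which the vagus slows the heart, was at 3.77, 6.09 and 3.56 TPM on day 9 and at 48.8, 87.1 and 64.5 TPM on day 20 (3.71 ± 0.28, adjusted p = 0.00215). The beta-adrenergic receptor ADRB1 rose from 0.284, 0.128 and 0.190 to 2.88, 5.36 and 1.10 TPM (3.64 ± 0.70, adjusted p = 0.0218), and its day 20 replicate 2 value lies close to that library's level on silent genes. CORIN, the protease that matures NPPA, rose by 5.06 ± 1.02 and the angiotensin receptor AGTR1 by 5.75 ± 0.91. NPPB, the second natriuretic peptide, was at 121, 93.1 and 61.6 TPM on day 9 and at 508, 99.6 and 42.7 TPM on day 20, overlapping groups (adjusted p = 0.438).

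Genes of muscle energy supply and fatty acid use rose in part. Of 15 muscle energy genes 8 rose (median 2.65), and so did 9 of 25 fatty acid oxidation genes (1.32), 5 of 18 glycolysis genes (1.39) and 4 of 79 nuclear genes of oxidative phosphorylation (0.59), and none of the 4 lists had a member that fell. The share of oxidative phosphorylation genes called higher is near the 6.72% of all genes, although 42 of the 79 had separate days upwards, beside 17.9% of all genes. Without day 20 replicate 2 the 4 counts were 9, 14, 13 and 17, with the lane block 9, 4, 1 and 2. Without day 9 replicate 1 they were 0, 2, 0 and 0.

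CKM, the muscle creatine kinase, rose from 3.91, 0.994 and 3.27 to 1015, 594 and 122 TPM (7.52 ± 1.00, adjusted p = 0.00747), and its mitochondrial partner CKMT2 from 2.52, 4.22 and 3.02 to 103, 76.3 and 21.8 TPM (4.19 ± 0.58, adjusted p = 0.00838). Myoglobin (MB) rose from 5.32, 4.48 and 6.68 to 336, 122 and 79.0 TPM (4.88 ± 0.66, adjusted p = 0.00793). COX6A2, the muscle form of a cytochrome oxidase subunit, rose from 0.374, 1.02 and 0.250 to 219, 71.6 and 24.5 TPM (7.42 ± 1.10, adjusted p = 0.0101). All 4 were highest in day 20 replicate 1 and lowest in replicate 3. The fatty acid transporter CD36 rose from 0.220, 0.217 and 0.0401 to 16.8, 20.0 and 4.24 TPM (6.24 ± 0.78, adjusted p = 0.00626), the mitochondrial coactivator PPARGC1A from 0.522, 1.16 and 0.299 to 34.9, 48.1 and 9.48 TPM (5.34 ± 0.70, adjusted p = 0.00717), and CPT1A, which admits fatty acids to mitochondria, by 3.59 ± 0.41. In glycolysis LDHA rose by 2.45 ± 0.49. In oxidative phosphorylation the largest rise was COX4I2 (4.94 ± 0.89) and the largest of a generally expressed subunit SDHA (1.95 ± 0.43).

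Genes of the progenitor programme fell in part. Of 26 progenitor regulators and receptors 9 fell and none rose, with a median of -1.11, and of 17 primitive streak and mesoderm genes 3 fell (median -1.31). With the lane block the counts were also 9 and 3, without day 20 replicate 2 they were 11 and 7, and without day 9 replicates 1, 2 and 3 they were 3, 6 and 3 for the progenitor list and 1, 2 and 1 for the mesoderm list. PDGFRA fell from 419, 343 and 993 TPM to 41.8, 54.4 and 87.9 TPM (-3.42 ± 0.60, adjusted p = 0.0167). ISL1, the regulator of the second heart field, fell from 91.7, 39.7 and 149 TPM to 10.2, 9.82 and 13.9 TPM (-3.23 ± 0.55, adjusted p = 0.0149). APLNR, the apelin receptor of early mesoderm, fell from 224, 159.6 and 351 to 6.29, 9.96 and 8.83 TPM (-5.09 ± 0.42, adjusted p = 0.00283). Each of these losses had separate days.

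Other members behaved less evenly. LGR5, a receptor of the Wnt-amplifying R-spondins, fell by 5.52 on the log2 scale (SE 0.74), the segment gene HOXB1 by 4.68 (SE 0.86), the chemokine receptor CXCR4 by 4.24 (SE 0.93), FOXC1 by 3.33 (SE 0.48) and the second heart field ligand FGF10 by 2.91 (SE 0.37). KDR, a receptor for vascular endothelial growth factor, was at 318, 413 and 653 TPM on day 9 and at 69.7, 105 and 413 TPM on day 20, where replicate 3 lay within the day 9 range, and did not pass the test (adjusted p = 0.29). MESP1, an early regulator of cardiac mesoderm, was already low at 10.2, 3.79 and 6.68 TPM and was at 2.31, 5.60 and 2.84 TPM on day 20 (adjusted p = 0.19). EOMES, a primitive streak factor, was at 22.4, 5.11 and 16.2 TPM and then at 0.176, 8.58 and 0.491 TPM, where the value of 8.58 is that of day 20 replicate 2.

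Of 19 pluripotency genes tested 11 fell and none rose (median -2.60), with 9 called with the lane block, 14 without day 20 replicate 2 and 4, 9 and 5 without day 9 replicates 1, 2 and 3. POU5F1, the central regulator of the pluripotent state, was at 115, 61.4 and 95.8 TPM on day 9 and at 2.29, 7.70 and 9.98 TPM on day 20 (-3.98 ± 0.58, adjusted p = 0.00953). POU5F1 has processed copies elsewhere in the genome that can share its reads. SOX2 was at 21.5, 3.93 and 19.4 TPM and then at 0.320, 9.23 and 1.34 TPM (adjusted p = 0.191), and NANOG was between 0.928 and 2.03 TPM on day 9 and between 0.0597 and 3.92 TPM on day 20, the highest value in replicate 2 (adjusted p = 0.946). DPPA4 fell by 4.34 (SE 0.51), L1TD1 by 4.04 (SE 0.57) and ZFP42 by 4.03 (SE 0.49). DNMT3B, the methyltransferase that sets new DNA methylation, fell from 207, 166 and 151 to 25.6, 37.5 and 36.0 TPM (-2.60 ± 0.28, adjusted p = 0.00427). Of 7 DNA methylation genes it was the 1 that fell, and TET2, which oxidizes methylcytosine, was the 1 that rose (1.10 ± 0.21), while TET1 was at 112 ± 9.92 and then at 92.2 ± 2.11 TPM (SD, n = 3, edgeR adjusted p = 0.332).

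Of 9 fetal RNA-binding and chromatin genes 5 fell and none rose (median -1.81), and the same number did with the lane block, against 1, 3 and 1 without day 9 replicates 1, 2 and 3. LIN28A, which blocks the maturation of let-7 microRNAs, was at 1546, 1951 and 1464 TPM on day 9 and at 101, 31.7 and 48.5 TPM on day 20 (-4.87 ± 0.62, adjusted p = 0.00646). Its paralog LIN28B fell from 163, 222 and 144 to 26.7, 35.7 and 80.6 TPM (-2.01 ± 0.49, adjusted p = 0.0435), and the difference between the paralogs was not tested. TRIM71 fell by 2.63 (SE 0.40) and the chromatin protein HMGA1 by 2.56 (SE 0.38), whereas HMGA2 was at 45.0, 72.1 and 31.0 TPM and at 36.6, 82.9 and 49.8 TPM (adjusted p = 0.981).

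**Figure D3:**
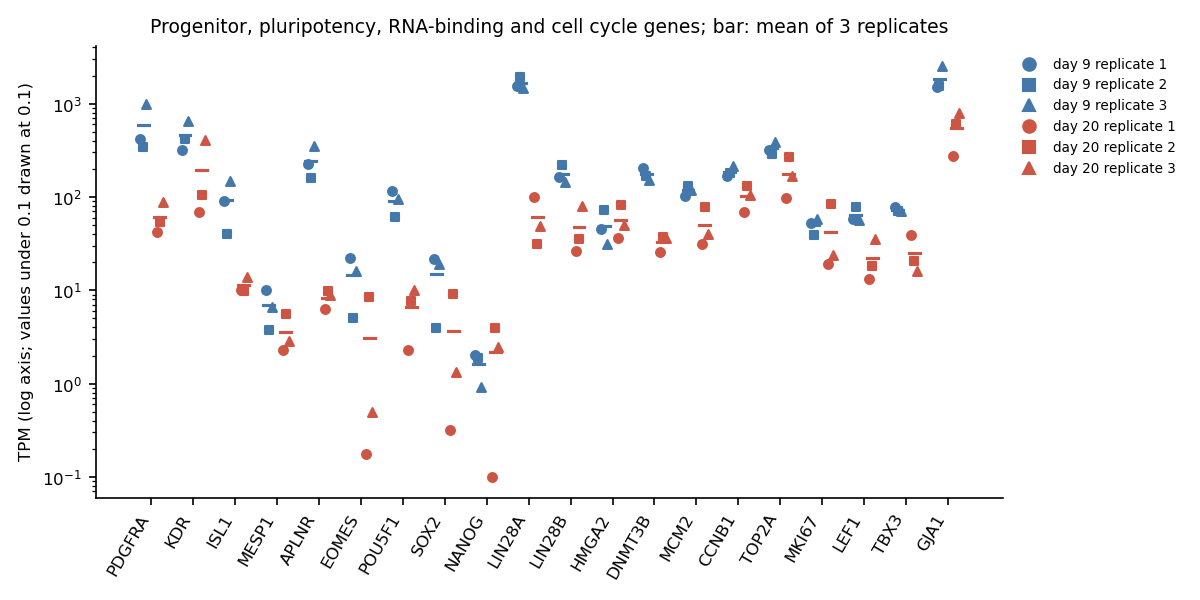
TPM on a log axis for 20 genes of progenitors, pluripotency, RNA-binding proteins and the cell cycle, in the same symbols as the gained genes. PDGFRA, ISL1, APLNR, POU5F1, LIN28A and DNMT3B have separate days, while KDR, MESP1, EOMES, SOX2, NANOG, HMGA2 and MKI67 overlap, with day 20 replicate 2 (red square) at 9.23 TPM for SOX2 and 83.1 TPM for MKI67.

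Of 60 cell cycle genes tested, 13 fell, 47 did not pass the test and none rose, with a median of -0.87, 4 of 27 S phase genes and 9 of 33 mitotic genes. The count moved with day 20 replicate 2, in which the list's median was only 0.32 below the day 9 mean, against 1.77 and 0.96 below it in replicates 1 and 3, and without that library 43 fell. Their summed level of 5186 TPM in replicate 2 lay within the day 9 range of 4889 to 5311 TPM, although TPM sums in that library are on a lower scale. Replicates 1 and 3 were at 1679 and 2522 TPM. With the lane block 6 fell, without day 9 replicates 1, 2 and 3 it was 0, 3 and 0, and with a block for the plate number in the sample titles 0. The plate block leaves day 9 replicate 3, which has no plate number, out of the contrast of the days. The largest falls were MYBL2 (-1.86 ± 0.38), a regulator of late cell cycle genes, MCM5 (-1.75 ± 0.39), a subunit of the replicative helicase, and CDT1 (-1.73 ± 0.25), which loads that helicase at origins. MCM2, of the same helicase, fell from 102, 133 and 118 to 31.2, 77.9 and 40.5 TPM (-1.48 ± 0.28, adjusted p = 0.0211). CCNB1, the mitotic cyclin, fell from 168, 180.3 and 213 to 69.6, 133 and 104 TPM (-1.09 ± 0.25, adjusted p = 0.0393). TOP2A (318, 286 and 392, then 96.6, 270.0 and 168 TPM) and the proliferation marker MKI67 (53.2, 39.0 and 58.5, then 19.0, 83.1 and 23.9 TPM) did not pass the test with all libraries, and MKI67 was above every day 9 value in day 20 replicate 2.

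Replication-dependent histone genes, transcribed in S phase, fell in 18 of 55 cases and rose in none (median -1.18), with 22 without day 20 replicate 2, 12 with the lane block and 0, 1 and 0 without day 9 replicates 1, 2 and 3. H4C6 fell from 1598, 1410.0 and 1742 to 295, 303 and 611 TPM (-2.12 ± 0.41), H4C9 by 2.21 (SE 0.32) and H2AC14 by 2.45 (SE 0.57). These genes exist in many near-identical copies, so the split of reads between copies is uncertain. Of 15 D cyclins and CDK inhibitors 4 rose, all inhibitors or pocket proteins (CDKN1A, CDKN2B, CDKN2D and RB1), 2 did with the lane block, and 0 with the plate block or without any one of the day 9 libraries. CDKN1A rose from 16.7, 19.9 and 26.2 to 525, 65.7 and 182 TPM (3.55 ± 0.80, adjusted p = 0.0351), while CCND1 and CCND2 were at means of 72.9 ± 2.35 and 248 ± 70.7 TPM on day 9 and of 83.9 ± 35.6 and 277 ± 84.6 TPM on day 20 (SD, n = 3) and did not pass the test.

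The letters of the CCAAT box lay in 71.4% of the 14 windows of the called cell cycle genes, against 34.6% of all windows and 20.5% of the sarcomere windows, and TTTGAA, the letters of the cell cycle homology region, in 21.4% against 15.2%. The 10 cell cycle windows with CCAAT belonged to 7 of the 11 matched genes, so a gene with several starts counts more than once. The CCAAT letters also lay in 5 of 6 windows of the pluripotency genes called lower. They lay in 5 of 10 windows of the muscle energy genes called higher. A CCAAT share above that of all windows was therefore not particular to the cell cycle genes or to genes that fell. None of the 14 cell cycle windows held the TATA or GATA letters, a MEF2 site or a CArG box. Over all windows the shares were 11.5%, 10.3%, 2.99% and 1.29%. That difference was not tested, and 14 windows are few for shares of this size. CDC20 (chr1:43358731-43359030) and CCNB2 (chr15:59104896-59105195), both on the plus strand, hold both CCAAT and TTTGAA, and capitals mark every match on either strand.
CDC20: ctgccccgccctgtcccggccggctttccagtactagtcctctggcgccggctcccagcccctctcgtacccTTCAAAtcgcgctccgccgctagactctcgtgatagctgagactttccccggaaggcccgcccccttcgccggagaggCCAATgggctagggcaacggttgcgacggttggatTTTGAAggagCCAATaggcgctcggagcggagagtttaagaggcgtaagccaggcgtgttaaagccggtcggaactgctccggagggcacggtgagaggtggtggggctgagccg
CCNB2: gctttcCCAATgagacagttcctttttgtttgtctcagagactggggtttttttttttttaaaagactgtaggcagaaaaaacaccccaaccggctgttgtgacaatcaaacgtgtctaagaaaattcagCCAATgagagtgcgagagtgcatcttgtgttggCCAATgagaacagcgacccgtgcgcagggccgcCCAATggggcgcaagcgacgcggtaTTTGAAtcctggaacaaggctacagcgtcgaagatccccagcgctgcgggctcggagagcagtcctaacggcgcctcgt
In CDC20, which fell by 1.63 (SE 0.29), TTTGAA began 65 and the nearest CCAAT 55 bases before the start. In CCNB2 they began 29 and 54 bases before it.

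Signalling genes moved in both directions. Of 28 Wnt pathway genes 5 rose and 4 fell, and 3 and 3 did with the lane block. The counts were 0 and 1, 1 and 2, and 1 and 2 without day 9 replicates 1, 2 and 3. The feedback targets of the pathway that were called had fallen, namely LGR5, SP5 (-3.71 ± 0.77) and LEF1 (-1.65 ± 0.42, adjusted p = 0.0498), the last from 58.0, 77.9 and 56.3 to 13.3, 18.3 and 35.7 TPM. Among secreted antagonists SFRP5, expressed in the cells that feed the early heart tube, fell from 536, 249 and 671 to 61.6, 45.1 and 50.5 TPM (-3.39 ± 0.48), while FRZB rose by 5.42 ± 1.35 with 66.3, 72.6 and 1101 TPM in day 20 replicates 1 to 3. AXIN2, another feedback target, was at 10.7, 16.1 and 11.5 TPM and then at 7.27, 14.1 and 16.5 TPM.

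Of 38 genes of the Nodal, FGF and BMP pathways 12 fell and 3 rose (median -1.17), and 11 and 2 did with the lane block. Without day 9 replicates 1, 2 and 3, 4, 7 and 4 fell and 1 rose in each case. FOXH1, which carries Nodal signals to DNA, fell by 4.36 (SE 0.55). DUSP6, a feedback inhibitor of FGF signalling, fell from 187, 320.3 and 177 to 20.9, 20.0 and 23.7 TPM (-3.54 ± 0.33, adjusted p = 0.0038), and the receptor FGFR1 by 2.63 (SE 0.36). FGF18 was the largest rise, by 4.88 ± 0.45. LEFTY2, an inhibitor of Nodal, rose from 1.18, 1.30 and 1.19 to 17.3, 12.5 and 3.00 TPM (2.96 ± 0.66, adjusted p = 0.0346), while FOXH1, TDGF1 and GDF3 of the same pathway fell. Of 15 Notch genes DLL3 and LFNG fell and JAG2 rose, and of 17 HOX genes HOXB1 alone was called.

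**Figure D4:**
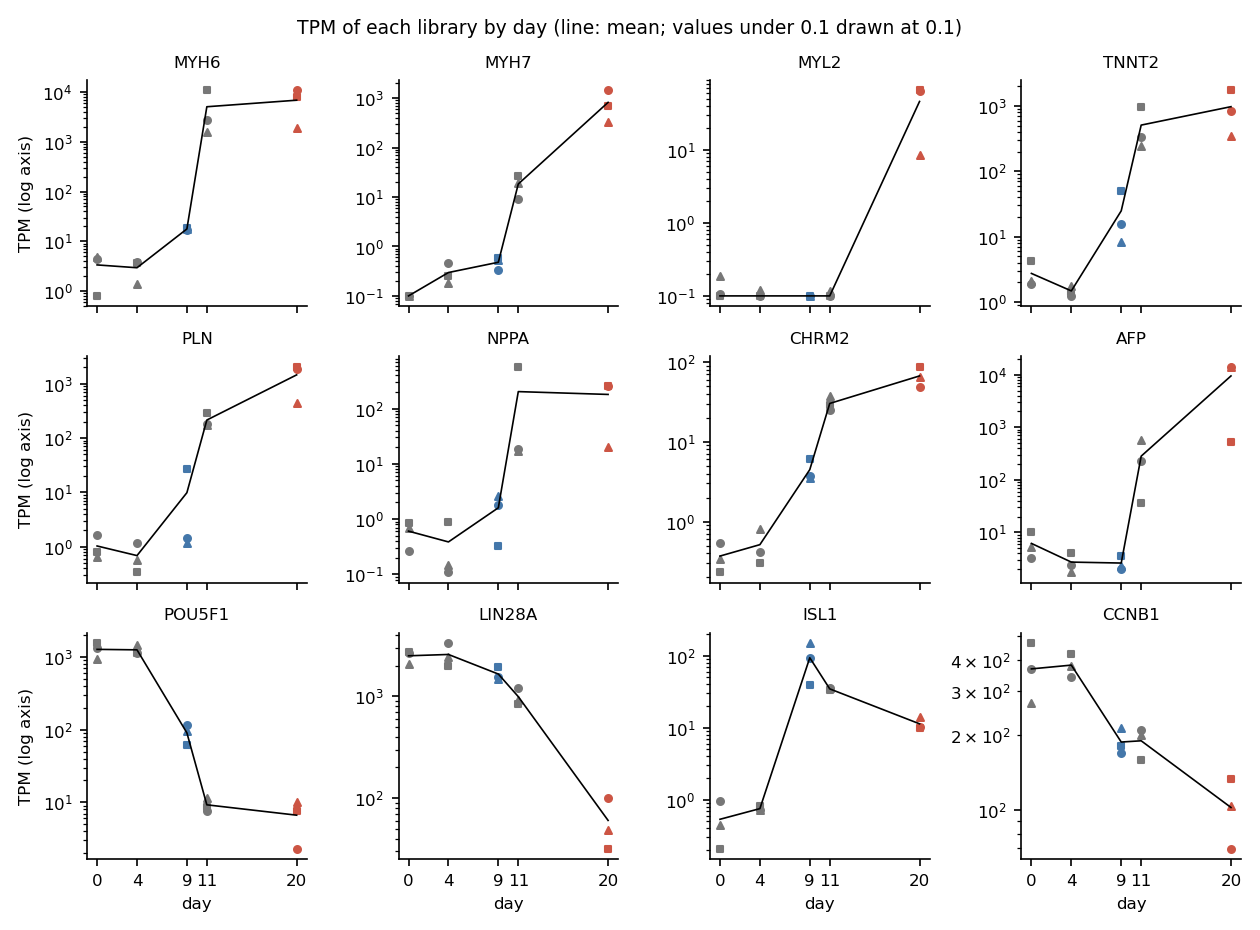
TPM on a log axis of 12 genes in each library of days 0, 4, 9, 11 and 20 (horizontal axis, days), with day 9 in blue, day 20 in red and the line through the means. MYH6 was at a mean of 5069 TPM by day 11 and MYH7 at 18.3 TPM, while POU5F1 was at 9.24 TPM on day 11 and LIN28A still at 992 TPM.

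The days between the compared points give the order of these changes, as values with no test. MYH6 was at 2745, 10863 and 1598 TPM in the 3 day 11 libraries, near its day 20 levels, and MYH7 at a mean of 18.3 ± 8.53 TPM, far below its 820.1 ± 565 TPM on day 20. MYL2 had barely a read on day 11 (0.0391 ± 0.0677 TPM). LAMA2 was at 4.87 ± 3.23 TPM on day 11, beside 4.20 ± 1.14 TPM on day 9, and CD36 at 0.610 ± 0.597 TPM, beside 0.159 ± 0.103 TPM (SD, n = 3). On the losing side POU5F1 had reached 9.24 ± 1.98 TPM by day 11, whereas LIN28A, APLNR and TBX3 were still at 992 ± 201, 192 ± 76.6 and 86.1 ± 15.5 TPM (SD, n = 3).

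Genes of other cell types were part of the change. The 3 largest increases among well expressed coding genes, AFP, SERPINA1 and AHSG, belonged to secreted proteins of fetal liver and yolk sac. Of 18 such genes 10 rose and none fell, with a median of 4.79, and their summed level went from between 429 and 1545 TPM on day 9 to 26983, 1090 and 33499 TPM in day 20 replicates 1, 2 and 3. AFP, the fetal counterpart of albumin, was at 1.99, 3.54 and 2.32 TPM on day 9 and at 13772, 516 and 14209.8 TPM on day 20 (11.80 ± 1.62, adjusted p = 0.00826), above MYH6 in replicates 1 and 3. SERPINA1 was at 4469, 163 and 2091 TPM and AHSG at 1372, 24.4 and 2146 TPM on day 20, from under 2 TPM in each day 9 library. ALB rose from 0, 0.325 and 0.0801 to 238, 14.6 and 76.6 TPM (9.58 ± 1.46, adjusted p = 0.0109). Day 20 replicate 2 was the low library in all of these.

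Other members of that list were present before. APOA1 was at 254, 783 and 198 TPM on day 9 and at 2079.8, 54.6 and 3315 TPM on day 20, and TTR at 68.3, 198 and 65.1 and then 179.9, 17.8 and 751 TPM. Neither passed the test with all 6 libraries, and without day 20 replicate 2 the list had 16 of its 18 genes called higher. With the lane block 7 were, and without day 9 replicates 1, 2 and 3 the counts were 1, 4 and 1. Of 13 regulators of endoderm PDX1 and HNF4G rose and SOX17 fell (-2.83 ± 0.44). With the lane block 0 of these regulators were called higher and 1 lower. Without day 9 replicates 1, 2 and 3, 0, 0 and 0 were called higher and 0, 1 and 0 lower. FOXA2 was at 79.3, 55.4 and 84.4 TPM and then 63.7, 12.5 and 14.8 TPM, and HNF4A at 25.1, 35.1 and 14.6 and then 32.9, 6.56 and 26.4 TPM. No gene of 13 epithelial markers was called by edgeR or DESeq2, with GRHL2 alone at an unadjusted p under 0.05, and in day 20 replicate 2 their median was 2.98 below the day 9 mean on the log2 scale.

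Matrix genes varied between the day 20 libraries. Of 41 extracellular matrix genes 9 rose and 1 fell (median 1.27), 15 and 3 without day 20 replicate 2, 5 and 2 with the lane block, and 0 and 1 without day 9 replicate 1. POSTN, a protein of activated mesenchyme, was at 0.408, 1.07 and 0.669 TPM on day 9 and at 32.1, 26.5 and 388 TPM on day 20 (7.65 ± 1.39, adjusted p = 0.0182). DCN rose by 8.48 ± 1.98 and MGP by 7.58 ± 1.53, with 353 and 37.4 TPM in replicate 3. COL3A1 was at 111, 848 and 21.6 TPM on day 9 and at 1726, 723 and 17006 TPM on day 20, groups that overlapped (adjusted p = 0.153), and LUM and COL1A1 did not pass the test either. HAPLN1, which links hyaluronan in the cardiac jelly of the embryo, fell by 4.01 (SE 0.41) from 247, 252 and 476 to 21.2, 23.8 and 23.5 TPM. The library with the highest levels of POSTN, DCN, MGP and COL3A1 had the lowest summed sarcomere level of day 20, and the part of its cell make-up in either result was not tested.

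Of 20 laminins and laminin receptors 5 rose and none fell, 5 rose and 1 fell with the lane block, 6 rose and 1 fell with DESeq2, and 2, 4 and 2 rose without day 9 replicates 1, 2 and 3. LAMA2, the alpha chain of the laminin-221 on which the cells were grown, rose from 4.81, 2.88 and 4.91 to 222, 369 and 68.9 TPM (5.43 ± 0.63, adjusted p = 0.00525), and LAMA4 by 8.83 ± 0.85. LAMA1, the alpha chain of the early embryo, was at 294, 327 and 553 TPM and then at 139, 26.3 and 42.3 TPM (-2.59 ± 0.74, adjusted p = 0.0708). LAMB2 and ITGA7, the beta chain and a muscle integrin that pair with LAMA2, did not pass the test (adjusted p = 0.425 and 0.388).

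**Figure D5:**
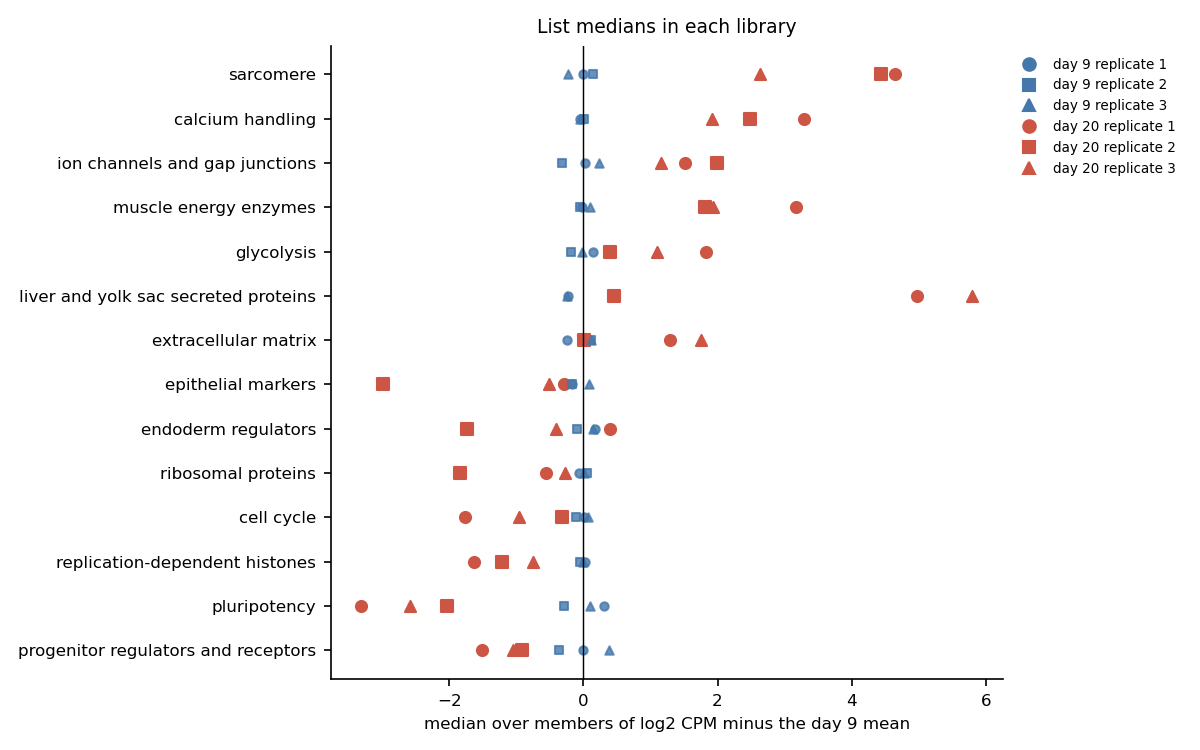
Median over the members of each list of log2 CPM minus the day 9 mean, for each library (day 9 blue, day 20 red, symbols by replicate). Day 20 replicate 1 is at 4.64 for the sarcomere and 4.97 for liver and yolk sac proteins, replicate 2 at 4.44 and 0.46, and replicate 3 at 2.63 and 5.80.

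Few markers of further cell types were called, although some lists were well expressed. The epicardial and mesothelial markers summed to 2187 to 2453 TPM on day 9 and 459.9 to 2118 TPM on day 20, the smooth muscle markers to 152 to 335 TPM on day 9 and 402 to 662 TPM on day 20 and the endothelial markers to 529.7 to 958 TPM on day 9 and 230.1 to 685 TPM on day 20. Of 16 endothelial markers EMCN rose and SOX17 fell, and the defining PECAM1 and CDH5 stayed under 10 TPM in all 6 libraries. Of 13 epicardial and mesothelial markers TBX18 and UPK3B rose, of 8 smooth muscle markers LMOD1, and of 8 neural markers STMN2, with 304 TPM in day 20 replicate 3 against 33.9 and 16.5 TPM in the others, while the neural tubulin TUBB3 stayed under 4 TPM in every library. Of 5 blood markers edgeR called none, with RUNX1 alone at an unadjusted p under 0.05, and DESeq2 called 1. Of 12 antigen presentation genes B2M alone rose, from 54.2, 72.0 and 75.1 to 182, 168 and 206 TPM (1.32 ± 0.28, adjusted p = 0.0282). Neither STMN2 nor B2M was called with the lane block or without any one of the day 9 libraries. That block left 1 endothelial marker higher and 1 lower, and 2 epicardial and mesothelial markers and 1 smooth muscle marker higher. Of 14 splicing regulators MBNL1 (3.90 ± 0.57) and RBFOX1 (4.60 ± 0.73) rose, and RBM20, the splicing regulator of titin, was at 46.8, 34.3 and 52.9 TPM and then at 58.8, 76.1 and 23.0 TPM.

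Ribosomal protein genes were mostly lower without passing the test. Of 86 tested, RPL39L fell and RPS27L rose, yet 68 had separate days downwards, beside 17.2% of all genes, and the median was -0.74. The list's median relative to the day 9 mean was -0.55, -1.83 and -0.27 in day 20 replicates 1, 2 and 3. The summed level of 35962 TPM in replicate 2, on that library's lower scale, stood against 68517 and 85140 TPM in replicates 1 and 3.

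Beyond the lists, the 10 largest increases and decreases among well expressed coding genes named a few more. FBXO40, a muscle F-box protein, rose by 9.85 ± 0.83 and HSPB3, a small muscle heat shock protein, by 9.82 ± 0.69 to 189.6, 276 and 78.8 TPM, and TM4SF4, a membrane protein of liver and gut, by 9.80 ± 1.66, with 150.4 TPM in day 20 replicate 1 against 14.8 and 11.5 TPM. Of the decreases NOS2, the inducible nitric oxide synthase, led with 101, 29.2 and 165 TPM on day 9 and 1.00, 6.29 and 0.968 TPM on day 20 (-5.55 ± 0.94, adjusted p = 0.0148). VRTN fell by 5.38 (SE 0.60), TUNAR by 4.86 (SE 0.63), the secreted synapse organizer CBLN2 by 4.82 (SE 0.35) and RIPPLY3, a repressor that acts with T-box factors, by 4.82 (SE 0.76). PGA5 fell by 4.73 (SE 0.63) and has near-identical neighbouring copies.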

How the data were processed

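Total RNA of H1 cells was sequenced as paired 150 base reads (TruSeq stranded total RNA with removal of ribosomal RNA, Illumina HiSeq). The authors aligned reads to GRCh38 with STAR 2.5.2b and counted them per gene with featureCounts 1.5.1, and the deposited counts leave out ribosomal RNA and mitochondrial genes. The strand setting is not given in the sources used here. The deposited TPM values were made by the authors from the counts with gene lengths that are not stated. The deposited sample sheet gives an RNA integrity score and the uniquely mapped fraction of each library. That fraction was 46.0% in day 9 replicate 1 and 57.0% in day 20 replicate 3, both from lane 1. It was 71.0% to 83.0% in the remaining libraries of the 2 days, and its part in the results was not tested. The methods list day 7 where the labels give day 9, and the labels were followed.

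The counts of the 3 day 9 and 3 day 20 libraries, 15675095 to 27518996 per library, were filtered (filterByExpr, minimum count 10, total 15), scaled by TMM and tested with edgeR 4.0.16 (R 4.3.3, robust quasi-likelihood, no covariate, two-sided). P-values were adjusted by Benjamini-Hochberg across the whole tested table. The labels call the libraries biological replicates from triplicate wells, so p-values measure the spread between these wells, and an exact permutation test of 3 against 3 cannot go below p = 0.1. SE is the log2 fold change divided by the square root of F. Levels are TPM, compared between genes per length. A count of 0 was given a limit of 3 counts per library. Names and positions are those of GENCODE 44, which held 46872 of the 48777 genes. Background reads were measured on 174 autosomal coding genes of at least 2 kb with at most 2 counts in all over the 12 libraries of days 0 to 11. The fit was tested on simulated data. Columns without a sample numbered 0.

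The genes named are list members, the 3 called members of a list with the largest change in each direction, and the 10 largest increases and decreases among called coding genes with separate libraries, whose mean in the day of higher expression reached 10 CPM. Some of these genes are not reported here. The members and lists were chosen with earlier results of these data known. The alternatives were DESeq2 1.42.0, other scalings and filters, limma 3.58.1 on log2 TPM with pseudocounts of 1 and 0.1, all 15 libraries in 1 fit, the 20 most counted genes left out, subtraction of the background, plate and lane blocks, a threshold of 0.01 and leaving out each library.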

Additional observations from a re-analysis of the deposited data

How the results depend on the processing

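No called gene changed direction in any alternative. The genes higher on day 20 numbered 2421 with DESeq2, 3509 with all 15 libraries in 1 fit, 868 with the lane block, 304 at a threshold of 0.01 and 146 to 2380 when a library was left out. The lower genes numbered 1475, 2088, 371, 106 and 58 to 1694. Plates 2 and 6 held libraries of both days. Deviations from the day means of libraries from one plate correlated at -0.147, 0.221 and 0.17 across genes. Pairs not from one plate ran from -0.155 to 0.154. Day 20 replicates 1 and 2 were both from plate 2, and deviations from a mean of 3 offset each other. These values therefore cannot decide whether libraries of a plate belong together. The meaning of the plate number is not stated, and it was not taken as a pairing. With the plate as a replicate block 356 genes were higher and 121 lower. In that fit day 9 replicate 3, which has no plate number, was a block of its own and added nothing to the contrast of the days. A smaller number of calls with this block is therefore not a measure of the plate alone. List members called higher, 156 in the report, numbered 254 with all 15 libraries, 70 with the plate as a replicate block and 29 to 206 when a library was left out. Those called lower, 77 in the report, numbered 140 with DESeq2, 159 with all 15 libraries, 23 with the plate block and 12 to 128. The median of the progenitor list was -1.53 without a filter on low counts, -0.79 on log2(TPM + 1), -1.54 with the lane block and -1.46 to -0.96 when a library was left out, and that of the pluripotency list -3.67 to -2.45. The cause of these shifts was not tested. The median log2 fold change over all genes shifted by -0.15 with DESeq2 and by -0.30 without a filter. Depth limits genes near 0 on day 9, and in day 20 replicate 2 the background limits losses below about 5.15 TPM.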

Other observations

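Some called genes outside the lists were also followed, chosen after their values were seen. Among lncRNAs, BANCR had no read in 2 day 9 libraries and 0.226 TPM in the other, and was at 150, 50.1 and 23.6 TPM in day 20 replicates 1 to 3 (log2 fold change 9.06 ± 1.21, edgeR adjusted p = 0.00747). LINC00881 rose from 0.479, 1.15 and 0.320 to 182, 101 and 68.8 TPM (7.36 ± 0.64, adjusted p = 0.00349). TRDN-AS1, antisense to the calcium release gene TRDN, rose by 7.32 ± 0.79 and IRX4-AS1 by 6.64 ± 1.05, and since the strand setting is not stated their reads cannot be told apart from those of the genes they overlap. On the losing side PCAT14 went from 172, 140.4 and 161 to 12.3, 5.56 and 10.0 TPM (-4.21 ± 0.45, adjusted p = 0.00427) and LINC01356 fell by 3.14 on the log2 scale (SE 0.42).

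Among coding genes, LRRC10, a leucine-rich repeat protein of heart muscle, rose from 0.312, 0 and 0.208 to 203, 66.6 and 54.3 TPM (9.09 ± 0.99, adjusted p = 0.00449). The adhesion molecule VCAM1 rose from 0.636, 1.48 and 0.582 to 307, 294 and 163 TPM (7.98 ± 0.53, adjusted p = 0.00215). The membrane proteins POPDC2 and BVES, both of the Popeye family of striated muscle, rose by 4.57 ± 0.96 and 3.44 ± 0.52. ALPL, an alkaline phosphatase abundant in pluripotent cells, fell from 186, 133 and 236 to 3.86, 11.0 and 13.4 TPM (-4.50 ± 0.53, adjusted p = 0.00546). The transcription factors SALL1 and SOX11 fell by 3.97 (SE 0.58) and 1.94 (SE 0.26). Day 20 replicate 1 held the highest value of BANCR, LINC00881, LRRC10 and VCAM1, and in each of these genes the days did not overlap.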
